A study of Mus musculus with 6 samples.

Results

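The dystrophin-glycoprotein complex was examined through 8 named genes, Dmd, Utrn, Dag1, Sgca, Sgcb, Sgcd, Sspn and Dtna, whose rows were taken by gene symbol from the deposited expression matrix of cultured mouse muscle stem cells (MuSCs). All 8 symbols had a row among the 18943 genes listed, and all 8 were among the 13921 genes whose mean value was at least 5, the minimum for testing. MuSCs were sorted by flow cytometry from wild-type C57BL/6 mice aged 8 weeks and kept in culture for 5 days, 2 libraries with the solvent DMSO as control, 2 with the peptide ET-3 (endothelin-3) and 2 with the peptide NT (neurotensin), both of which act through G protein-coupled receptors. The labels give 100 nM for both peptides, whereas the general culture methods of the study state higher concentrations, without tying them to the sequenced cells, and the design text speaks of triplicates where 2 libraries per group were used here. The replicates are described as biological samples, but whether the libraries of a group came from separate cultures or from separate mice is not given in the sources used here. The p-values below therefore measure the spread between these libraries, which may be technical. Averaged over genes, this spread did not exceed the sampling noise of reads in the treated pairs.

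The complex joins the cytoskeleton of a muscle fiber to its basement membrane. On the outside, the heavily glycosylated dystroglycan binds laminins and other matrix proteins, a ring of sarcoglycans and sarcospan steadies it in the membrane, and on the inside dystrophin connects dystroglycan to actin while dystrobrevins and syntrophins gather signaling proteins. Loss of dystrophin causes Duchenne muscular dystrophy, loss of single sarcoglycans causes limb-girdle muscular dystrophies, and utrophin, the close relative of dystrophin, takes its place in many cells that lack it.

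The values are read counts per gene that the authors multiplied by 1 factor per library and rounded. They summed to between 4214458 and 4600575 per library and correspond to between 3628891 and 5396233 reads on genes. Counting alone, without any other source of error, made a value of 100 uncertain by 8.84% to 10.9%. Averaged over genes, the 2 ET-3 libraries differed from each other by less than the sampling noise of reads, with a mean chi-square of 0.896 per gene. So did the NT libraries with 0.962, against 1.46 for the DMSO libraries. Over the members alone these means were higher, at 1.04 with ET-3, 1.68 with NT and 1.97 with DMSO. They come from at most 8 genes each, and none lay below the sampling noise. Each library was kept as 1 sample, and every call of a member against DMSO also held when each treated pair was averaged and counted as 1 sample. Markers of differentiating muscle cells, with 8 of 8 listed genes measured, summed to between 12074 and 13558 with DMSO, between 453 and 483 with ET-3 and between 341 and 466 with NT, while those of MuSCs and myoblasts summed to between 8989 and 9963, between 8416 and 8691, and between 7216 and 7578. The latter list moved both ways. Of its 7 genes, ET-3 gave 2 higher and 3 lower calls, while NT gave 2 higher and 5 lower ones. Scaling to library totals changed these counts to 3 higher and 2 lower for ET-3, and to 2 higher and 4 lower for NT. Pax7, the defining factor of MuSCs, rose from 857 and 1070 to between 1599 and 1754, and Vcam1 rose as well. The cadherin gene Cdh15 fell from 1547 and 1746 to between 436 and 496. Once each treated pair was averaged, neither Pax7 nor Vcam1 kept its higher call, while Cdh15 was still called lower. The summed level of the differentiation markers was thus far higher in the DMSO libraries, and in bulk RNA fewer cells of a type cannot be told apart from less RNA per cell.

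All 8 members had lower values in the 4 treated libraries than in both DMSO libraries. Each passed an adjusted p of 0.05 in both comparisons, by limma's trend test on log2(value + 1) with Benjamini-Hochberg adjustment over all tested genes. Among all 13921 tested genes, 33.2% were called lower under ET-3 and 32.5% under NT, and 30.6% and 29.7% were called higher. With a change of at least 2-fold asked for as well, 6 of 8 members were called lower under each peptide, against 14.9% of all tested genes under ET-3 and 13.2% under NT, and 0 members were called higher, against 6.62% and 7.3%. For the members, the median log2 fold change with ET-3 was -1.89, that with NT -1.68, both unchanged with Sgcd at its bound given below, and that of all tested genes was -0.01 under each. Scaling to library totals moved the median of all genes to 0.08 under ET-3 and 0.10 under NT, and moved the share of lower genes among all called genes under NT from 52.3% to 41.7%. The 8 members were lower under that scaling too. Both comparisons use the same DMSO libraries and are therefore not independent of each other.

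**Figure D1:**
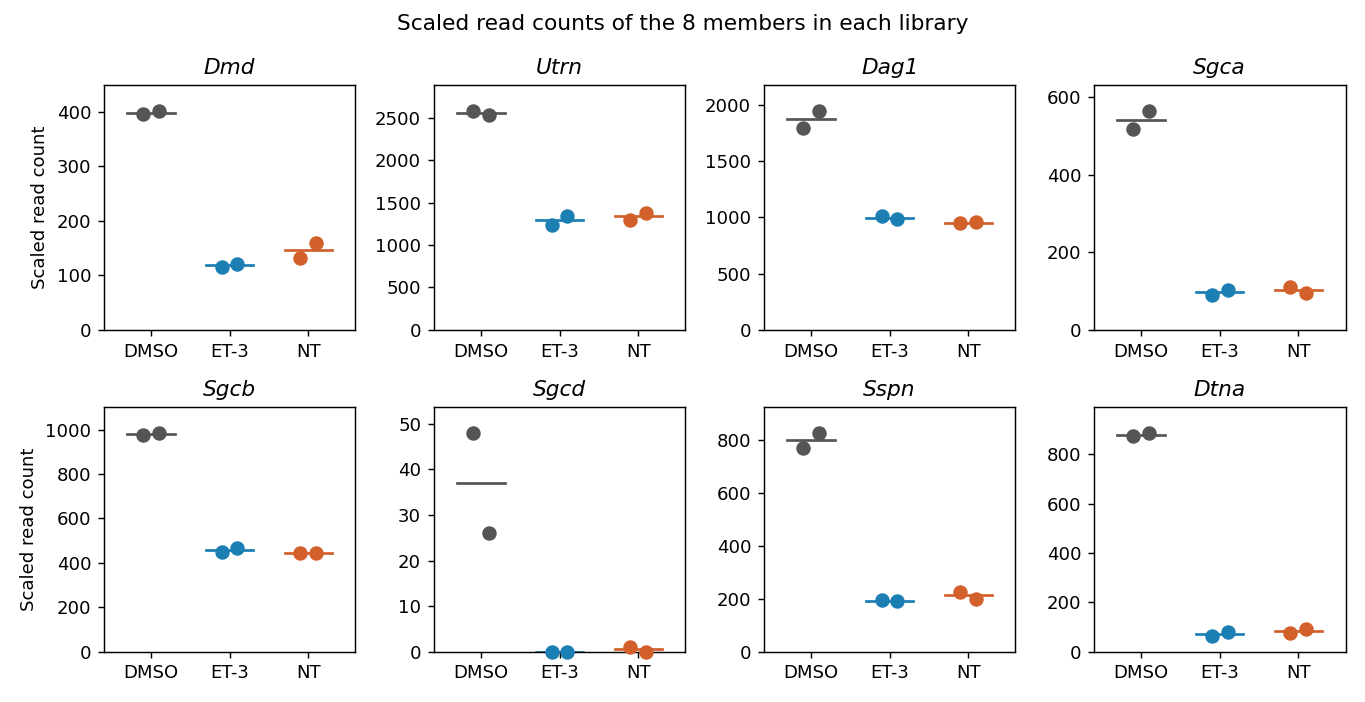
Scaled read count (vertical axis, linear, from 0, a separate scale in each panel) of the 8 members with DMSO, ET-3 and NT, with 1 point per library, 2 per group, and a line at the group mean. In each panel both DMSO points lie above all 4 treated points, while the ET-3 and NT points lie close together.

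Dag1 encodes the dystroglycan precursor, which is cut into a matrix-binding alpha subunit and a membrane-spanning beta subunit. Its values were 1798 and 1943 (DMSO), 1009 and 987 (ET-3) and 950 and 958 (NT). The treated libraries thus held 53.4% and 51.0% of the DMSO mean, and the DMSO libraries stood clear of them. ET-3 gave a log2 fold change of -0.90 ± 0.05 (SE) and NT one of -0.97 ± 0.05, with adjusted p-values of 1.41e-07 and 9.51e-08 by limma with Benjamini-Hochberg adjustment. Dag1, which spans chr9:108204634-108263958 on GRCm38 (minus strand), was therefore called lower under each peptide, but its change lay just short of 2-fold.

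The sarcoglycans are membrane proteins that surround dystroglycan, and the 3 examined here differed widely in how far they fell. Sgcb, the gene of beta-sarcoglycan (chr5:73632749-73647790, minus strand), had values of 977 and 985 (DMSO), 449 and 467 (ET-3) and 443 and 444 (NT). Sgca, the gene of alpha-sarcoglycan (chr11:94962791-94976327, minus strand), is the sarcoglycan most restricted to striated muscle. Its values were 516 and 563 (DMSO), 91 and 104 (ET-3) and 111 and 94 (NT). For neither gene did the DMSO and treated libraries overlap. Sgcb kept 46.7% of its DMSO mean under ET-3 and 45.2% under NT, and Sgca kept 18.1% and 19.0%. The log2 fold changes of Sgcb were -1.10 ± 0.05 and -1.14 ± 0.05 (adjusted p = 3.70e-08 and 3.08e-08, limma with Benjamini-Hochberg adjustment). Those of Sgca were -2.46 ± 0.11 and -2.39 ± 0.11 (adjusted p = 4.56e-08 and 5.97e-08, limma with Benjamini-Hochberg adjustment). The 95% intervals of both genes, -1.20 to -0.99 for Sgcb and -2.70 to -2.21 for Sgca under ET-3, lie apart.

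Sgcd, the gene of delta-sarcoglycan, spans 1093 kb on chr11:46896253-47988969 (minus strand) and was the member with the fewest reads. It was listed at 48 and 26 with DMSO, at 0 in both ET-3 libraries, and at 1 and 0 with NT. Relative to their mean, the 2 DMSO libraries differed more than for any other member, yet both lay above every treated library. Against a floor of 3 counts per library, the ET-3 value was at least 12.3-fold lower than the DMSO mean. With 1 read in the NT libraries and 72 reads in the DMSO libraries, the NT value was 93.3-fold lower, with a counting interval from 16.2 to 3738, which does not set it apart from the bound for ET-3. Adjusted p-values were 1.48e-05 under ET-3 and 3.23e-05 under NT (limma, Benjamini-Hochberg), and these were the largest among the members.

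The stretches upstream of the starts of Sgca and Sgcb, the sarcoglycans with the larger and the smaller measured change among those with ample reads, are shown here with those of Dmd for what they hold in letters. They are the 250 bases before a RefSeq transcript start on GRCm38.p6, read 5′ to 3′ on the strand of the gene, from chr11:94976328-94976577 (minus strand) for Sgca and from chr5:73647738-73647987 (minus strand) for Sgcb. Dmd has a window before the start of its longest product, at chrX:82948620-82948869 (plus strand), and one before the start of a short product far inside the gene, at chrX:85048045-85048294 (plus strand). Capitals mark E-boxes (CANNTG, the letters that MyoD-family factors and other basic helix-loop-helix factors bind) and, in the first Dmd window, a MEF2-type and a CArG-type motif, the binding letters of MEF2 and of SRF.
Sgca: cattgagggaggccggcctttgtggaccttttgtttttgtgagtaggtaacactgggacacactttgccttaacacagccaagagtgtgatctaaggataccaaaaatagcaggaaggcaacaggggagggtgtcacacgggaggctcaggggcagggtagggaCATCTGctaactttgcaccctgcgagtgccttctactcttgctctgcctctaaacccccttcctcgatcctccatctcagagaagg
Sgcb: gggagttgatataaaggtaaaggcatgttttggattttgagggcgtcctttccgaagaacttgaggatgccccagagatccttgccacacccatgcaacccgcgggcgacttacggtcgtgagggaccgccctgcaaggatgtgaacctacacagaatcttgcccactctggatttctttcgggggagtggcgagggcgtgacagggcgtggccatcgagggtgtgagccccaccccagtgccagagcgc
Dmd, start of the longest product: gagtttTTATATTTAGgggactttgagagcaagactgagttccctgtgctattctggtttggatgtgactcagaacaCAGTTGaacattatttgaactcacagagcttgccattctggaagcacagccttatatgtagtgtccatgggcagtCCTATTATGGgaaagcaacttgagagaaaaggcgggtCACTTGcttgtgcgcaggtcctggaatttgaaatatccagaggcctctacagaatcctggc
Dmd, start of a short product: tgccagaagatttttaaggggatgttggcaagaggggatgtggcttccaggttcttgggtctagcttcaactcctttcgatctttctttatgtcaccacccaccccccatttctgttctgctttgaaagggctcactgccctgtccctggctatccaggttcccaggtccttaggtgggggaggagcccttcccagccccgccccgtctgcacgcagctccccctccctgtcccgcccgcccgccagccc
With -1 as the last base before the start, the Sgca window holds an E-box from -86 and the Sgcb window holds no searched motif. The first Dmd window holds E-boxes from -173 and -61, the MEF2-type motif from -244 and the CArG-type motif from -98, at 45.2% G and C. The second Dmd window holds none of them, at 60% G and C against a median of 52.4% over all windows. The search covered both strands of 10 windows of 7 members, Dtna not among them. CANNTG was present in 7 of the 10 windows, against 66.2% of all 32851 windows in the RefSeq table. By member it was present in 6 of 7. The Dag1 windows overlap and share 1 E-box, which is counted in each of them. CAGCTG, which is a form of CANNTG, was in 0 of the 10 windows, against 13.0% of all windows, the MEF2-type motif in 1, against 2.92%, and the CArG-type motif in 1, against 1.47%. The E-box share of these windows is thus close to that of all windows, and a match says only that these letters occur there.

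Sspn encodes sarcospan, a small protein with several membrane spans that sits with the sarcoglycans. Its values were 772 and 828 (DMSO), 195 and 191 (ET-3) and 225 and 201 (NT). The treated libraries held 24.1% and 26.6% of the DMSO mean, without overlap. ET-3 gave a log2 fold change of -2.04 ± 0.07 and NT one of -1.91 ± 0.07 (adjusted p = 9.49e-09 and 1.67e-08, limma with Benjamini-Hochberg adjustment). Sspn lies at chr6:145931641-145965223 (plus strand) and shares 1.38% of its exonic bases with an antisense gene, Sspnos. The study's methods state that reads over several genes were left out. Whether reads in the shared bases were left out depends on the strand setting of the counting, which is not given in the sources used here.

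Dmd encodes dystrophin, the large rod that ties actin to dystroglycan. The gene spans 2257 kb on chrX:82948870-85206141 (plus strand), and its 3 annotated coding transcripts reach from 604 to 3678 codons, which counts per gene cannot separate. Its values were 396 and 401 (DMSO), 116 and 121 (ET-3) and 132 and 160 (NT). The ET-3 libraries held 29.7% of the DMSO mean and the NT libraries 36.6%, and the lowest DMSO library was well above the highest treated one. ET-3 gave a log2 fold change of -1.74 ± 0.10 and NT one of -1.45 ± 0.10 (adjusted p = 2.42e-07 and 9.35e-07, limma with Benjamini-Hochberg adjustment).

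Utrn encodes utrophin, the widely expressed relative of dystrophin (chr10:12382188-12869365, minus strand). Its values were 2576 and 2526 (DMSO), 1239 and 1346 (ET-3) and 1295 and 1378 (NT). Utrn thus fell together with Dmd, and no rise of utrophin RNA accompanied the lower dystrophin RNA. ET-3 gave a log2 fold change of -0.98 ± 0.05 and NT one of -0.93 ± 0.05 (adjusted p = 1.42e-07 and 2.19e-07, limma with Benjamini-Hochberg adjustment), just short of 2-fold. Per kilobase of exon, Utrn exceeded Dmd by 9.05 and 8.76 times in the DMSO libraries and by 12.0 to 15.5 times in the treated libraries.

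Dtna encodes alpha-dystrobrevin, a cytoplasmic relative of dystrophin that binds it and carries syntrophins. Of the members with ample reads it fell furthest. Its values were 874 and 887 (DMSO), 63 and 81 (ET-3) and 74 and 92 (NT). Only 8.18% of the DMSO mean was left under ET-3 and 9.43% under NT. ET-3 gave a log2 fold change of -3.61 ± 0.13 and NT one of -3.40 ± 0.13 (adjusted p = 1.33e-08 and 2.22e-08, limma with Benjamini-Hochberg adjustment). Dtna lies at chr18:23415135-23659715 (plus strand) and shares 0.532% of its exonic bases with an antisense gene, Gm47898.

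**Figure D2:**
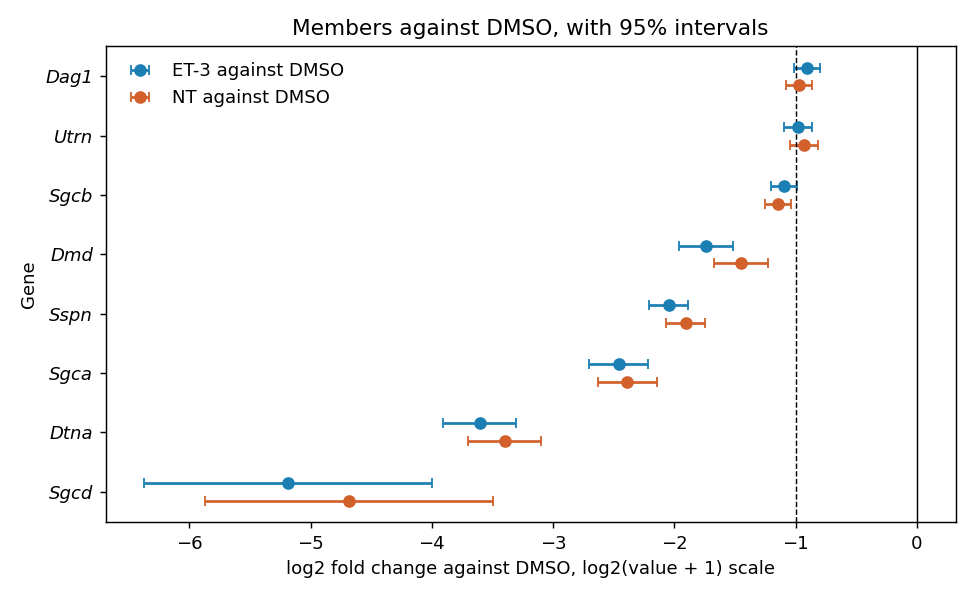
Log2 fold change against DMSO on the log2(value + 1) scale (horizontal axis) of each member (vertical axis) under ET-3 and NT, with 95% intervals from the limma fit over 2 libraries per group. The solid line marks no change and the dashed line a 2-fold decrease, which Dag1 and Utrn do not quite reach, while Dtna lies at -3.61 and -3.40, and the values of Sgcd depend on the added 1 because its treated libraries are at 0 or 1.

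The peptides were then set against each other directly. No member was called between NT and ET-3 by limma with Benjamini-Hochberg adjustment, where 2.69% of all tested genes were called in either direction. At an unadjusted p under 0.05, 1 member passed, beside 2765 of all tested genes. This was Dmd, higher with NT than with ET-3 by 0.29 on the log2 scale (95% interval 0.07 to 0.52, unadjusted p = 0.0152, adjusted p = 0.143 by limma). The difference, NT minus ET-3, was 0.14 for Sspn (interval -0.02 to 0.30), 0.21 for Dtna (-0.09 to 0.51) and 0.07 for Sgca (-0.18 to 0.31). It was 0.05 for Utrn (-0.07 to 0.16), -0.06 for Dag1 (-0.17 to 0.04) and -0.05 for Sgcb (-0.15 to 0.06). For Sgcd, with 1 read in 4 treated libraries, a difference was not detectable at this depth.

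Levels per kilobase of exon place the members on a common scale, although the joined exons of all isoforms overstate transcript lengths, and unequally so. They measure 16.9 kb for Dtna, whose longest coding product has 746 codons, against 23.8 kb and 3678 codons for Dmd. For Sgcd they measure 8.26 kb against 289 codons, for Sgcb 4.05 kb against 320 and for Sgca 1.735 kb against 387. The order of the members and their shares below depend on these lengths. With DMSO, Sgca led with 311 ± 19.2 (SD, n = 2) scaled reads per kb, next to Dag1 with 294 ± 16.1, and the ranges of these neighbors overlapped. Sgcb followed with 242 (241 and 243 in the libraries), then Sspn with 160 ± 7.93 and Utrn with 149 ± 2.07, then Dtna with 52.0 ± 0.543, Dmd with 16.7 ± 0.149 and Sgcd with 4.48 ± 1.88. In the treated libraries Sgca dropped to the fourth place, with 56.2 ± 5.30 with ET-3 and 59.1 ± 6.93 with NT, behind Dag1 with 157 ± 2.45 and 150.1 ± 0.890, Sgcb with 113 ± 3.14 and 109 ± 0.175, and Utrn with 75.5 ± 4.42 and 78.1 ± 3.43. Sspn came next with 38.6 ± 0.566 and 42.6 ± 3.40. On this scale Dtna fell below Dmd, at 4.25 ± 0.752 and 4.90 ± 0.752 against 4.98 ± 0.149 and 6.13 ± 0.832. The ranges of these neighbors lay close to each other, 3.72 to 4.78 against 4.87 to 5.08 with ET-3 and 4.37 to 5.43 against 5.55 to 6.72 with NT. Their order in the treated libraries therefore rests on the exon lengths used.

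The summed level of the 8 members was 1201 and 1259 scaled reads per kb (DMSO), 442 and 457 (ET-3) and 454 and 447 (NT). Since the members fell unequally, the make-up of this sum differed. Dag1 made up 23.6% and 24.3% of it with DMSO and 33.0% to 35.9% in the treated libraries, whereas Sgca made up 24.8% and 25.8% and then 11.9% to 14.1%. Dtna went from 4.30% and 4.16% to between 0.842% and 1.21%. Within the sarcoglycans, the ratio of Sgcb to Sgca per kb was 0.811 and 0.749 with DMSO and 1.71 to 2.11 in the treated libraries. The order of the pair per kb was thus turned around, which depends on the exon lengths. Without division by length Sgcb was above Sgca in every library, at 977 and 985 against 516 and 563 with DMSO.

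**Figure D3:**
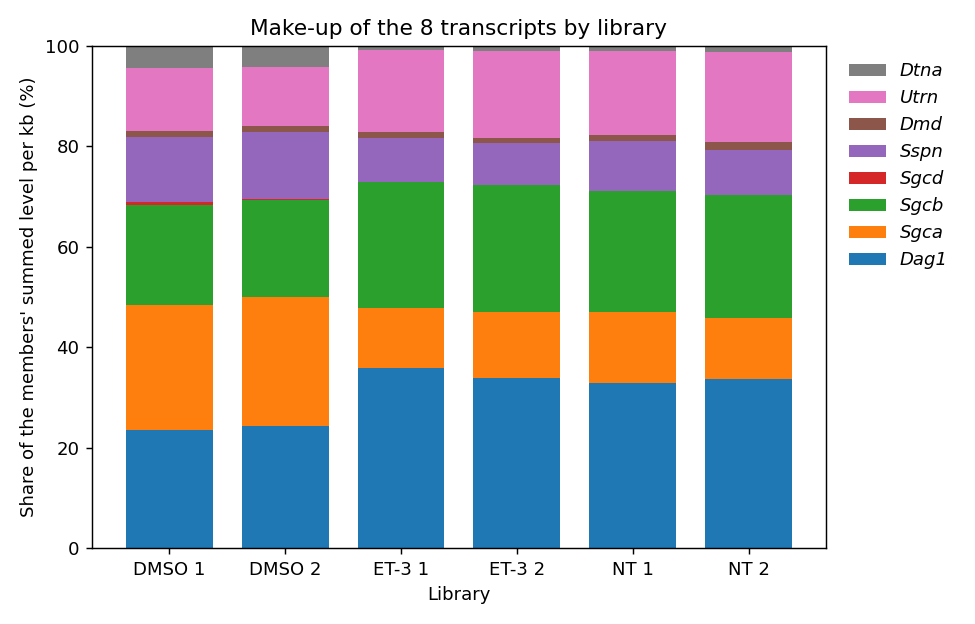
Share of each member in the members' summed level per kb of exon (vertical axis, percent) in each of the 6 libraries (horizontal axis). The treated libraries show a wider Dag1 band, 33.0% to 35.9% against 23.6% and 24.3% with DMSO, and a narrower Sgca band, 11.9% to 14.1% against 24.8% and 25.8%.

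Beyond the 8 members, 69 genes of partners, ligands and modifying enzymes were listed, of which 62 had a row and 57 were tested. Under ET-3, 24 were called lower and 18 higher, 15 and 4 of them at 2-fold, and 15 were not called. Under NT, 28 were called lower and 15 higher, 14 and 4 of them at 2-fold, and 14 were not called. ET-3 gave them a median log2 fold change of -0.08 and NT one of -0.20, beside -0.01 for all tested genes. Of all tested genes, 33.2% were called lower and 30.6% higher under ET-3, and 14.9% and 6.62% at 2-fold. Under NT these shares were 32.5% and 29.7%, and 13.2% and 7.3% at 2-fold. The counts of each list below, in the same fit, are to be read beside these shares. All calls below are limma calls with Benjamini-Hochberg adjustment.

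Of the dystrophin family, Drp2, named here outside the rule as the only tested gene of its list, was called higher, from 696 and 653 with DMSO to between 926 and 1045.

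Among the syntrophins, adaptor proteins that dock on dystrobrevins, and the second dystrobrevin, 4 genes were tested, of which 2 were called higher and 2 lower under each peptide, 2 and 1 when each treated pair was averaged. Sntb1, the gene of beta-1-syntrophin, had values of 1324 and 1323 (DMSO), 42 and 51 (ET-3) and 45 and 50 (NT), a log2 fold change of -4.81 ± 0.11 and -4.77 ± 0.11. Dtnb, the gene of beta-dystrobrevin, moved the other way, from 90 and 93 (DMSO) to 218 and 219 (ET-3) and 220 and 241 (NT) (1.25 ± 0.09 and 1.32 ± 0.09). Per kb, Dtnb stood at 0.182 and 0.185 times Dtna with DMSO and at 4.62 to 6.10 times Dtna in the treated libraries. The dystrobrevin with the higher level per kb was therefore Dtna with DMSO and Dtnb in all 4 treated libraries.

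Of 6 tested signaling proteins that associate with the complex, 2 were called higher and 2 lower under ET-3, and 2 and 3 under NT. Averaging each treated pair left 1 higher and 2 lower calls under each peptide, and scaling to library totals gave 2 and 2 under NT. Nos1, the neuronal nitric oxide synthase that the complex holds at the membrane through syntrophin, fell from 121 and 143 with DMSO to between 7 and 10 (log2 fold change -4.05 ± 0.27 under ET-3 and -3.74 ± 0.27 under NT). Cav3, the caveolin of muscle, fell from 441 and 453 to between 5 and 18 (-5.66 ± 0.35 and -4.89 ± 0.35). Kcnj12, an inward rectifier potassium channel, rose from 18 and 25 to between 106 and 136 (2.43 ± 0.19 and 2.57 ± 0.19).

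Of 8 tested cytoskeletal partners, 4 were called lower and 2 higher under ET-3, and 5 and 2 under NT, while with each treated pair averaged 3 were called lower and 1 higher under each. Flnc, the gene of the actin crosslinker filamin C, which binds sarcoglycans, fell from 4935 and 5333 with DMSO to between 1779 and 1902 (log2 fold change -1.48 ± 0.05 and -1.47 ± 0.05). Lower values were also seen for Synm, the gene of the intermediate filament protein synemin, from 27 and 25 to between 2 and 5, and for Krt19, from 30 and 30 to between 0 and 6. Krt18 was listed at 7 and 2 with DMSO and at 17 to 36 in the treated libraries, and its call was lost when each treated pair was averaged (adjusted p = 0.148 and 0.153 by limma). Ank3, the gene of the membrane adaptor ankyrin-G, named here after its values were seen, rose from 455 and 469 to between 935 and 1142 (1.05 ± 0.05 and 1.26 ± 0.05) and kept its call in that setting.

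The enzymes that build the matrix-binding glycan of dystroglycan showed small changes, and none reached 2-fold. Of 16 tested, 6 were called higher and 3 lower under each peptide, with log2 fold changes between -0.63 and 0.64 under ET-3 and between -0.69 and 0.71 under NT. With libraries scaled to their totals the counts were 8 higher and 3 lower under ET-3 and 7 higher and 1 lower under NT, and with each treated pair averaged, 1 and 0, and 3 and 0.

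Of 9 tested matrix ligands of dystroglycan, 6 were called lower and 2 higher under each peptide, and 5 and 0 with each treated pair averaged. Lamb2, the gene of the laminin beta-2 chain, fell from 1147 and 1129 with DMSO to between 462 and 495 (log2 fold change -1.28 ± 0.05 and -1.22 ± 0.05). Bgn, the gene of the proteoglycan biglycan, had values of 871 and 918 (DMSO), 355 and 394 (ET-3) and 508 and 423 (NT) (-1.26 ± 0.08 and -0.95 ± 0.08). Lama4, of the laminin alpha-4 chain, fell from 23 and 31 to between 0 and 2.

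The 11 genes of membrane repair and caveolae, all tested, split into a group that fell steeply and a group with small differences. Under ET-3, 5 were called lower and 3 higher, and under NT, 7 and 0, with 5 lower at 2-fold under each, while scaling to library totals gave 5 and 4, and 6 and 2. With each treated pair averaged, 5 were called lower and 0 higher under each peptide. Capn3, the muscle calpain, went from 144 and 137 with DMSO to 0 in all 4 treated libraries, at least 46.8-fold lower under each peptide. Trim72, the gene of the repair protein MG53, fell from 1296 and 1382 to between 22 and 56, Ano5, the gene of anoctamin-5, from 1558 and 1645 to between 111 and 142, and Dysf, the gene of dysferlin, from 800 and 852 to between 89 and 102. Mutations in several of these genes, like those in the sarcoglycan genes, cause limb-girdle muscular dystrophies.

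**Figure D4:**
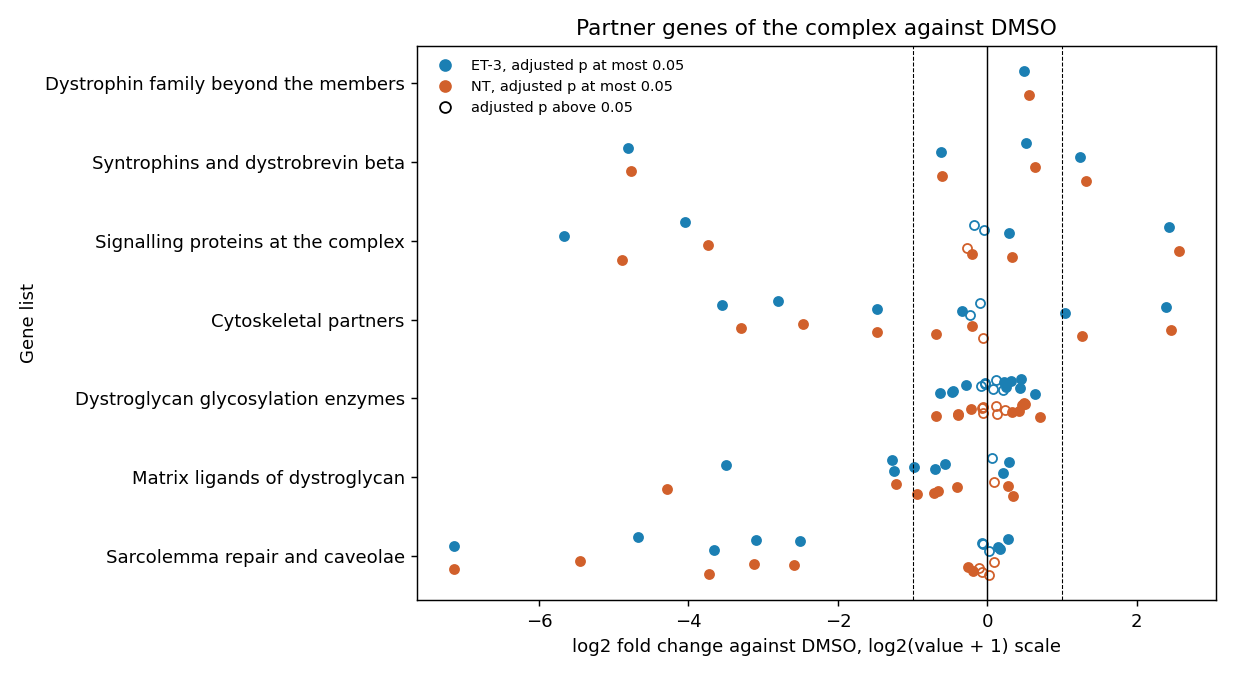
Log2 fold change against DMSO on the log2(value + 1) scale (horizontal axis) of tested partner genes, grouped by list (vertical axis), under ET-3 and NT. Filled points passed an adjusted p of 0.05 in limma, open points did not, and dashed lines mark 2-fold. The glycosylation enzymes lie between -0.69 and 0.71. The lists of signaling proteins, syntrophins, cytoskeletal partners, matrix ligands and membrane repair genes hold genes far to the left. In the membrane repair list 5 genes lie past a 2-fold decrease under each peptide. The position of Capn3, at 0 in all 4 treated libraries, depends on the added 1.

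Marker genes of other cells were measured beside these differences, and their part in the results was not tested. All 8 listed markers of differentiating muscle cells were called lower under each peptide, as were the 8 members. Markers of smooth muscle cells and pericytes summed to between 2374 and 2761 with DMSO, between 290 and 315 with ET-3 and between 361 and 420 with NT, through Notch3, Abcc9 and Rgs5, while the contractile marker Myh11 did not exceed 4 in any library. Those of fibroadipogenic cells (4 of 6 with a row) summed to between 204 and 211, between 70 and 77, and between 90 and 97, and moved both ways. Col1a1 fell from 148 and 146 to between 2 and 8, whereas Ly6a was called higher under each peptide, from 27 and 18 to between 37 and 52, and Pdgfra under NT, from 20 and 30 to 44 and 37. The higher calls of Ly6a and Pdgfra were lost when each treated pair was averaged. Those of macrophages (3 of 6) summed to 34 and 35, between 21 and 45, and 27 and 28. Schwann cell markers (4 of 6) summed to 160 and 182 (DMSO), 641 and 644 (ET-3) and 646 and 713 (NT), nearly all through Ngfr. Endothelial markers (4 of 6) summed to 12 and 24 with DMSO, between 96 and 104 with ET-3 and between 85 and 107 with NT, and Emcn and Cldn5 had no row. Tek went from 2 and 1 with DMSO to between 42 and 70 in the treated libraries, while Kdr had the highest DMSO values of the list, 16 and 6.

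For each member that passed 2-fold, the genes with the most similar pattern over the 6 libraries were sought among genes averaging at least 100, by Pearson's r of log2(value + 1). For Dmd these were Castor2 and Mrc2, for Sgca Actn3 and Ttn, for Sgcb Nrap and Ptgis, for Sgcd Blzf1 and Per1, for Sspn Mtcl1 and Atg9a, and for Dtna Mapre3 and Utrn, with r between 0.998 and 1.00. Since the libraries form a DMSO and a treated cluster, such values are common, and between 120 genes, for Sgcd, and 617 genes, for Sspn, exceeded an r of 0.99.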

How the data were processed

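RNA-seq of MuSCs cultured for 5 days with DMSO, ET-3 or NT was used, 2 libraries per group, grouped by their labels. The authors trimmed single-end reads, aligned them to mm10 (GRCm38) with STAR and counted them per gene with featureCounts. The submitters' processing notes name Trimmomatic 0.38, STAR 2.7.7a, featureCounts 1.6.5 and DESeq2 1.30.0. The labels name a SMART-Seq HT library kit, whereas the methods describe a stranded kit, and the strand setting of the counting is not given in the sources used here. The deposited values are a read signal, counts multiplied by 1 factor per library (0.781 to 1.19) and rounded, so count tests were not run. In libraries with a factor above 1, 34 to 64 whole numbers cannot come from any count, and 0 genes had them.

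Here, limma 3.58.1 (R 4.3.3) was fitted to log2(value + 1) over all 6 libraries for genes averaging at least 5, with a mean-variance trend, and p-values were Benjamini-Hochberg adjusted over 13921 genes in each of 3 comparisons. Depth was between 3628891 and 5396233 reads on genes per library. Positions and exonic lengths came from GENCODE (GRCm38), and upstream sequences from RefSeq (GRCm38.p6). The fit was tested on simulated data. Python 3.11.15 prepared tables and plots. The genes named beside the members are, of each partner list, at most the 4 with the largest change among those past both thresholds, markers, and the 2 genes most like each member. The members and lists were chosen with earlier results of these data known. Some of the genes tested are not reported here.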

Additional observations from a re-analysis of the deposited data

How the results depend on the processing

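The filter on low values, scaling to library totals or upper quartiles, pseudocounts of 0.5 and 5, voom weights, a fit of the compared groups alone, each treated pair averaged, and each library left out were tried, 15 alternatives for each comparison with DMSO. In each of them all 8 members were called lower by both peptides (limma, Benjamini-Hochberg), the largest adjusted p being 0.0451 for Sgcd under NT with each treated pair averaged. The count at 2-fold was 6 to 7 with a library left out. It was 7 under ET-3 without the second ET-3 library, where Utrn reached -1.04, and 7 under NT without the first DMSO library, where Dag1 reached -1.03. With a replicate block, 8 members were lower and 6 of them at 2-fold under each peptide. Same-numbered libraries did not deviate together (r = -0.01, -0.07 and -0.02 between groups). This check could hardly have shown a shared origin, because the treated pairs differed, averaged over genes, by less than the sampling noise of reads. Whether the replicate numbers stand for a pairing is not given in the sources used here. The block called 0 genes between NT and ET-3, against 375 without it. No member was called between NT and ET-3 in any of 15 alternatives. When a dependence of the fold change on coverage (reads per base of exon) was removed, 0 of all genes were called between the peptides. The log2 fold change of Sgcd ranged from -6.16 to -3.02 under ET-3 and from -5.71 to -2.89 under NT, mostly with the pseudocount and voom, because its treated libraries lie at 0 or 1. Depth limits Sgcd, with 72 reads in the DMSO libraries, and the precision of a value of 100 to about 8.84% to 10.9%.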
